A study of Rattus norvegicus with 8 samples.

Results

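The genes described here encode calcium/calmodulin-dependent protein kinases (CaM kinases) and calcineurin, the enzymes that read calcium signals through calmodulin in neurons. They were chosen by their NCBI GeneIDs, as 9 of the 22601 genes listed in each library. They comprise the 4 CaMKII subunit genes (*Camk2a*, *Camk2b*, *Camk2d* and *Camk2g*), *Camk4* and its activating kinase *Camkk2*, and 3 calcineurin subunit genes (*Ppp3ca*, *Ppp3cb* and *Ppp3r1*). RNA of the hippocampus was sequenced from 8 wild-type Wistar rats, of 180 to 220 g when purchased, with 1 library per rat, in 3 groups. The Con. group (n = 3) received vehicle. The PTZ group (n = 3) received pentylenetetrazole (PTZ), a convulsant that blocks GABA-A receptors, at 35 mg/kg intraperitoneally every 48 h for 28 days, or 14 injections, with 60 mg/kg on the last day, and then solvent. The Q808 group (n = 2) received the same PTZ course and then Q808, an anticonvulsant compound known by its code name, at 30 mg/kg by daily gavage for 28 days. PTZ and Q808 rats were given a further PTZ dose below the convulsive level on the day after the last Q808 dose and were killed after their seizures had been scored, so both the kindling and a recent injection preceded sampling. Both hippocampi were taken from each animal, and the labels used here give neither sex nor age.

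Calcium that enters a neuron through NMDA receptors or voltage-gated channels binds calmodulin, and calcium-loaded calmodulin switches on kinases and a phosphatase with opposed actions at the synapse. CaMKII is a ring of many subunits that holds its activity by phosphorylating itself and strengthens excitatory synapses, with alpha and beta as the main subunits of forebrain neurons and delta and gamma as the more widespread ones. CaM kinase kinase 2 activates CaM kinase IV, which acts in the nucleus on CREB, while calcineurin, made of a catalytic A and a calcium-binding B subunit, dephosphorylates NFAT and synaptic proteins and is the target of cyclosporin and FK506.

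The values were FPKM (fragments per kilobase of transcript, scaled to the mapped fragments of each library), a unit that allows levels of different genes to be compared. The files used here hold no read counts, so the depth behind a value is unknown, and only the spread between rats shows how precise it is. Group differences were tested with limma on log2(FPKM + 0.1), a scale that understates the change of low genes, for the 15593 genes whose mean FPKM reached 0.1, a filter that all 9 genes passed. To be called, a gene had to change by more than 1.5-fold and have an unadjusted p-value under 0.05. PTZ and Q808 were each compared with the same 3 Con. libraries and with each other, so that the 3 comparisons share libraries.

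A further difference between libraries crossed the groups. In Con.-3, PTZ-3 and Q808-1 the mean log2(FPKM + 0.1) of 6 markers of striatal projection neurons was between 5.53 and 6.97, against 1.13 to 2.16 in the other 5 libraries. In the same 3 libraries the summed FPKM of 5 dentate granule cell markers was 7.56 to 8.15, against 65.9 to 112. Most of this sum came from *C1ql2* (3.23 to 5.09 against 50.6 to 96.7 FPKM) and *Prox1* (2.84 to 4.04 against 12.2 to 16.6 FPKM). These granule cell markers of the labelled tissue were thus low there. *Dsp*, *Tdo2* and *Lct* did not exceed 0.957 FPKM in any library, and *Dsp* overlapped between the sets. Summed FPKM of 5 markers of neurons of all kinds was 946 to 1404 in these 3 libraries and 1652 to 1915 in the other 5, and that of 7 oligodendrocyte markers was 6866 to 13641 against 2652 to 4416. Each group holds 1 of the 3 libraries, and differences within the 5-library set and within the 3-library set are therefore given beside the pooled ones. The 3-library set lacks replicates, with 1 rat of each group, and the division was made after the data were seen. The 5-library set still differed between groups in 5 choroid plexus markers. Their summed FPKM was 2518 and 2487 in Con.-1 and Con.-2, 404 and 274 in PTZ-1 and PTZ-2, and 6376 in Q808-2. In Con.-3, PTZ-3 and Q808-1 it was 90.1, 482 and 159. The part of this tissue in the differences of the 9 genes was not tested.

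*Camk2d*, the delta subunit gene of CaMKII, was the one gene of the 9 that was called between PTZ and Con. rats, and it was higher in the PTZ group. *Ppp3ca*, the gene of the alpha catalytic subunit of calcineurin, had lower values in both groups of kindled rats, and passed both criteria only in Q808 vs. Con. The other 7 genes were not called in any comparison, and no gene of the 9 was called between Q808 and PTZ rats. Of all tested genes, 2.53% were called in PTZ vs. Con. (1.69% higher, 0.84% lower), 1.92% in Q808 vs. PTZ and 3.46% in Q808 vs. Con. (3.07% higher, 0.391% lower). The last are 479 genes higher and 61 lower, which quantile normalization turned into 283 higher and 158 lower. Blocking on the replicate number raised the count in PTZ vs. Con. from 395 to 616.

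For the kinase and the phosphatase gene that passed the criteria, each in 1 comparison, the 250 bases before the start site are shown. The windows come from the RefSeq promoter table for the rat assembly GRCr8. Both lie on chromosome 2, on the plus strand, *Camk2d* at chr2:217698301-217698550 and *Ppp3ca* at chr2:227839357-227839606. Capitals mark matches to the GC box (GGGCGG, or CCGCCC on the other strand), the core of sites bound by factors of the Sp1 family.
Camk2d: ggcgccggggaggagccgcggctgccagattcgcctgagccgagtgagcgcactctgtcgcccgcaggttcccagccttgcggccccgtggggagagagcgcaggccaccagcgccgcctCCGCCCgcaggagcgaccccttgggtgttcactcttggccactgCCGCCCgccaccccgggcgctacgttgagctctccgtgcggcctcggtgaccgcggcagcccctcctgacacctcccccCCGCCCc
Ppp3ca: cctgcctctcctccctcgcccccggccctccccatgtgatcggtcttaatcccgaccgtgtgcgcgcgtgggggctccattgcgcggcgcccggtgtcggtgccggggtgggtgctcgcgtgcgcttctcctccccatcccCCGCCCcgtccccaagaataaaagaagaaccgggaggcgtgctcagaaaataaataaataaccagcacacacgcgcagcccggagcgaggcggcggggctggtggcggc
*Camk2d* held 3 GC boxes, at -130, -86 and -7 from the start, and *Ppp3ca* held 1 at -109. Uncalled genes of the 9 held GC boxes too, with 7 in *Camk2g*, 5 in *Camk2b*, 4 in *Ppp3cb* and 3 in *Ppp3r1*. *Camk2a* and *Camk4* held 0. Of 27457 promoters in the table, 32.4% held at least 1 GC box in a window of this length. The CRE half-site (TGACG or CGTCA), the core of sites bound by CREB, was found in neither window and in 19% of all promoters. Among the 8 genes of the 9 with an entry, it matched at 2 places in *Camk2a* and at 1 place each in *Ppp3cb* and *Ppp3r1*. None of the 8 held the TATA box letters TATAAA, which 13.1% of all promoters held on either strand. The short NFAT core (GGAAA or TTTCC) matched once each in *Ppp3cb* and *Ppp3r1*, and in 56.7% of all promoters. The windows of *Camk2d* and *Ppp3ca* were 75.2% and 68% G and C, against a median of 52% over all promoters. Those of *Camk2b* and *Camk2g* were 80.4% and 80.8%, and the rest ranged from 44.4% (*Camk4*) to 70.4% (*Ppp3r1*). These matches describe letters and not bound sites.

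In levels, the 9 genes spanned the table from near its top to low values. *Camk2a* had a mean FPKM over the 8 libraries of 494 and ranked 67 among the 15593 genes, followed by *Camk2b* at 305 (rank 164), *Ppp3ca* at 273 (rank 201), *Ppp3r1* at 205 (rank 306) and *Ppp3cb* at 196 (rank 320). After a gap came *Camk4* at 21.0, *Camkk2* at 20.6, *Camk2d* at 9.08 and *Camk2g* at 1.25 FPKM. *Camk2a* exceeded *Camk2b* in 8 of 8 libraries, *Ppp3ca* exceeded *Ppp3r1* in 8 of 8, and *Camk2d* exceeded *Camk2g* in 8 of 8. The order was not the same in every library for *Camk2b* over *Ppp3ca* (5 of 8), *Ppp3r1* over *Ppp3cb* (7 of 8) and *Camk4* over *Camkk2* (4 of 8), whose means differed by less than their standard deviations over the 8 libraries.

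**Figure D1:**
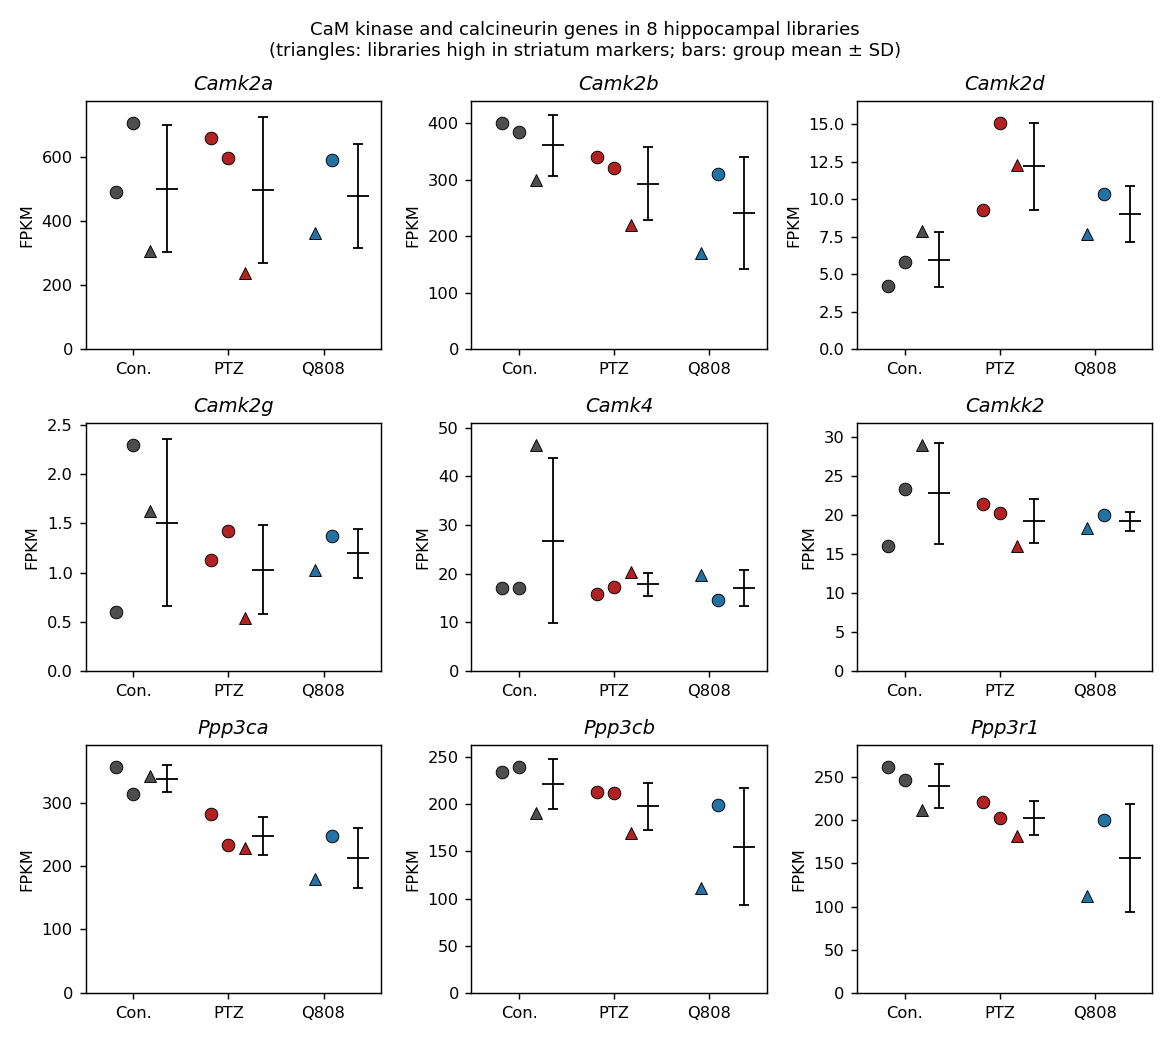
FPKM of the 9 genes in each library, by group on the horizontal axis, with 1 point per rat and bars for the group mean ± SD. Triangles are the libraries high in striatum markers. The 3 PTZ points of *Camk2d* (9.27 to 15.1) lie above the 3 Con. points (4.20 to 7.90), and the 3 PTZ and the 2 Q808 points of *Ppp3ca* lie below the Con. points.

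*Camk2d* had FPKM of 4.20, 5.83 and 7.90 in Con.-1 to Con.-3, of 9.27, 15.1 and 12.3 in PTZ-1 to PTZ-3, and of 7.68 and 10.4 in Q808-1 and Q808-2. Every PTZ library stood above every Con. library, while the Q808 libraries overlapped with both groups, Q808-1 lying just under Con.-3 and Q808-2 between PTZ-1 and PTZ-3. The mean rose from 5.98 ± 1.85 (SD, n = 3) in Con. to 12.2 ± 2.90 (SD, n = 3) in PTZ, 2.05-fold, with a log2 fold change of 1.04 (SE 0.28, 95% interval 0.37 to 1.70). Its limma unadjusted p-value was 0.0077, rank 88 of the 15593, and its Benjamini-Hochberg limma adjusted p-value was 0.999. No gene of the table had an adjusted p-value under 0.05 in this comparison, while 589 had an unadjusted one. Con. and PTZ were free of overlap for 2 of the 9 genes, *Camk2d* and *Ppp3ca*, against 9.15% of all tested genes. The log2 difference was 1.24 within the 5-library set and 0.64 within the 3-library set, and *Camk2d* passed both criteria in 18 of 18 alternative settings, with log2 fold changes of 0.81 to 1.26 and adjusted p-values of 0.129 to 1.00.

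After Q808, *Camk2d* had a mean of 9.02 ± 1.90 FPKM (SD, n = 2). The log2 fold change vs. PTZ was -0.42 (SE 0.27, 95% interval -1.09 to 0.24, limma adjusted p = 0.952), and that vs. Con. was 0.62 (95% interval -0.17 to 1.40, limma adjusted p = 0.901). Neither was called, and the intervals include both no difference and a difference of more than 1.5-fold. Against Con., the difference was 1.05 within the 5-library set, which for Q808 is Q808-2 alone, and -0.04 within the 3-library set. Leaving out the 3 libraries high in striatum markers made *Camk2d* called in Q808 vs. Con. (log2 1.05, limma unadjusted p = 0.018, with the single Q808 library assumed to vary like the others), and so did leaving out Con.-3 alone (log2 0.84).

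Marker lists of other cells that may lie in the dissected tissue are given beside *Camk2d*, since this subunit is not particular to neurons. Between PTZ and Con., 1 of 5 microglial markers (*Tmem119*) and 1 of 5 endothelial markers (*Pecam1*) were called, both higher, and 0 of 5 markers of neurons of all kinds, 0 of 5 astrocyte markers, 0 of 7 oligodendrocyte markers and 0 of 5 mural cell markers. Summed microglial FPKM ranged from 55.4 to 61.7 in Con. and from 57.7 to 82.4 in PTZ, and summed endothelial FPKM from 69.0 to 70.7 in Con. and from 62.3 to 125 in PTZ. In PTZ-1, PTZ-2 and PTZ-3 the endothelial sum was 82.6, 62.3 and 125, and *Camk2d* was 9.27, 15.1 and 12.3 FPKM. Summed astrocyte FPKM ranged from 659 to 789 in Con. and from 854 to 942 in PTZ, without overlap. All 5 astrocyte markers had positive log2 fold changes, with a median of 0.29. The part of these cell types in the *Camk2d* difference was not tested. In whole tissue, more cells of a type and more RNA per cell cannot be told apart, nor can fewer cells and less RNA.

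*Camk2a*, the alpha subunit gene, had FPKM of 491, 705 and 308 in Con., 660, 596 and 238 in PTZ, and 362 and 592 in Q808. The 3 lowest values were those of the libraries high in striatum markers, and the 3 groups overlapped. The pooled log2 fold changes were -0.06 for PTZ vs. Con. (95% interval -1.14 to 1.01), 0.03 for Q808 vs. PTZ and -0.04 for Q808 vs. Con. These intervals are wide, and a 2-fold difference in either direction lies within that of PTZ vs. Con. Within the 5-library set the difference between PTZ and Con. was 0.09, and within the 3-library set it was -0.37.

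*Camk2b*, whose beta subunit anchors CaMKII to actin filaments, had FPKM of 399, 384 and 299 in Con., 339, 320 and 220 in PTZ, and 170 and 311 in Q808. In each group the library high in striatum markers had the lowest value. The log2 fold change was -0.31 in PTZ vs. Con. (95% interval -0.81 to 0.18), -0.32 in Q808 vs. PTZ and -0.64 in Q808 vs. Con. (95% interval -1.43 to 0.15, limma adjusted p = 0.901). None was called. Values in PTZ and Q808 overlapped with Con. through Con.-3, and within the 5-library and 3-library sets the differences were -0.25 and -0.44 for PTZ vs. Con., and -0.33 and -0.81 for Q808 vs. Con.

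*Camk2g*, the gamma subunit gene, was the least expressed of the 9 and had the widest spread. It had FPKM of 0.601, 2.29 and 1.63 in Con., 1.13, 1.43 and 0.537 in PTZ, and 1.02 and 1.37 in Q808. The Con. libraries alone covered nearly the whole range, and the groups overlapped in every comparison. Its log2 fold change of -0.43 in PTZ vs. Con. had a 95% interval from -1.72 to 0.87, and the difference was 0.08 within the 5-library set and -1.44 within the 3-library set. At this level the spread between rats allows no statement on the direction.

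Within CaMKII, *Camk2d* made up a small share of the summed FPKM of the 4 subunit genes. The share was 0.469%, 0.531% and 1.28% in Con., 0.919%, 1.62% and 2.62% in PTZ, and 1.42% and 1.13% in Q808. Con.-3 stood above PTZ-1, so the groups overlapped, though every PTZ share was above every Con. share within each of both sets of libraries. The mean share was 0.761% ± 0.452 (SD, n = 3) in Con. and 1.72% ± 0.855 (SD, n = 3) in PTZ, a difference of 0.957 percentage points, with 0.767 within the 5-library set and 1.34 within the 3-library set (two-sided exact permutation test, p = 0.2, where 0.1 is the smallest p that 3 libraries against 3 or 2 allow). Without PTZ-3 the difference between PTZ and Con. was 0.507 percentage points. Q808 had a mean share of 1.28% ± 0.202 (SD, n = 2), -0.441 percentage points from PTZ (exact permutation p = 0.7) and 0.516 from Con. (exact permutation p = 0.3). No share test in this design can reach 0.05.

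The ratio of *Camk2a* to *Camk2b* FPKM was 1.23, 1.84 and 1.03 in Con., 1.94, 1.87 and 1.08 in PTZ, and 2.13 and 1.91 in Q808. The ratio lay near 1 in Con.-3 and PTZ-3 but not in Q808-1, which is also high in striatum markers. Both Q808 libraries stood above the Con. libraries, with means of 2.02 ± 0.157 (SD, n = 2) and 1.37 ± 0.420 (SD, n = 3), and the difference of 0.652 had an exact permutation p of 0.2. Summed CaMKII FPKM was 870 ± 241 (SD, n = 3) in Con., 804 ± 292 (SD, n = 3) in PTZ and 727 ± 264 (SD, n = 2) in Q808, with spreads larger than the differences.

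In the kinase cascade, *Camk4* had FPKM of 17.0, 17.0 and 46.4 in Con., 15.7, 17.3 and 20.3 in PTZ, and 19.7 and 14.5 in Q808. Con.-3 stood far above the other 7 libraries, which lay between 14.5 and 20.3. The pooled log2 fold change in PTZ vs. Con. was -0.42 (95% interval -1.34 to 0.49) and rested on Con.-3, since the difference was -0.04 within the 5-library set and -1.19 within the 3-library set. The value in Q808 vs. Con. was -0.49, with -0.23 and -1.23 within the sets. The CaM kinase IV gene was not called in any comparison.

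*Camkk2* had FPKM of 16.1, 23.3 and 29.0 in Con., 21.4, 20.3 and 16.0 in PTZ, and 18.4 and 20.0 in Q808. All PTZ and Q808 values lay within the range of Con. but for PTZ-3, which was marginally below Con.-1. The log2 fold change was -0.21 in PTZ vs. Con. (95% interval -0.77 to 0.35), 0.01 in Q808 vs. PTZ and -0.21 in Q808 vs. Con. Within the 5-library and 3-library sets the difference between PTZ and Con. was 0.11 and -0.85.

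*Ppp3ca* had FPKM of 356, 314 and 342 in Con., 282, 233 and 228 in PTZ, and 179 and 247 in Q808. Every PTZ and every Q808 library stood below every Con. library, while PTZ and Q808 overlapped. The mean was 337 ± 21.4 (SD, n = 3) in Con. and 248 ± 29.9 (SD, n = 3) in PTZ, with a log2 fold change of -0.45 (SE 0.14, 95% interval -0.78 to -0.12, or 1.37-fold lower). The limma unadjusted p-value was 0.0147, rank 158 of the 15593, and the Benjamini-Hochberg limma adjusted p-value was 0.999, so that *Ppp3ca* passed the limit on p but not that on the fold. The difference was -0.38 within the 5-library set and -0.58 within the 3-library set.

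In Q808 vs. Con., *Ppp3ca* fell to 213 ± 47.8 FPKM (SD, n = 2), 1.60-fold lower, with a log2 fold change of -0.68 (SE 0.21, 95% interval -1.21 to -0.15, limma unadjusted p = 0.0210, limma adjusted p = 0.901). Of the 9 genes 1 was called lower, against 0.391% of all tested genes called lower, and 2 of the 9 did not overlap between groups, against 20% of all tested genes. The call rested on few libraries. Without Con.-1, Con.-2 or Q808-1 the limma unadjusted p-value was 0.075, 0.060 and 0.073, and without the 3 libraries high in striatum markers the log2 fold change was -0.44, under the fold limit. It was called in 11 of 17 alternatives, and a 2-fold limit and the replicate block (-0.67) ended the call as well. Against PTZ the log2 fold change of *Ppp3ca* was -0.23 (95% interval -0.78 to 0.31), and *Ppp3ca* was not called.

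*Ppp3r1*, the gene of the calcium-binding B subunit, had FPKM of 261, 246 and 212 in Con., 221, 203 and 182 in PTZ, and 112 and 200 in Q808. Both Q808 libraries lay below all Con. libraries, and PTZ-1 lay above Con.-3. The log2 fold change was -0.25 in PTZ vs. Con. (95% interval -0.58 to 0.09), -0.43 in Q808 vs. PTZ and -0.68 in Q808 vs. Con. (SE 0.29, 95% interval -1.40 to 0.04, limma unadjusted p = 0.0611, limma adjusted p = 0.901). None was called.

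*Ppp3cb*, the gene of the beta catalytic subunit, had FPKM of 234, 239 and 191 in Con., 213, 212 and 169 in PTZ, and 111 and 199 in Q808. Q808-1 was lowest for all 3 calcineurin genes. The log2 fold change of *Ppp3cb* was -0.16 in PTZ vs. Con. (95% interval -0.53 to 0.21), -0.41 in Q808 vs. PTZ and -0.57 in Q808 vs. Con. (95% interval -1.30 to 0.16), and none was called. Within the 5-library set, Q808-2 vs. Con.-1 and Con.-2 gave -0.25 for *Ppp3cb* and -0.34 for *Ppp3r1*, and within the 3-library set -0.78 and -0.92. Without Q808-2, which leaves Q808-1 as the one Q808 library, both genes were called lower vs. PTZ (-0.83 and -0.85) and vs. Con. (-0.99 and -1.10), and *Camk2b* was called lower vs. Con. (-1.07).

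Summed FPKM of the catalytic subunit genes *Ppp3ca* and *Ppp3cb* was 590, 553 and 533 in Con., 495, 444 and 397 in PTZ, and 290 and 445 in Q808. All kindled rats, treated with Q808 or not, lay below all Con. rats. The mean was 559 ± 28.9 (SD, n = 3) in Con., 446 ± 48.8 (SD, n = 3) in PTZ and 368 ± 110 (SD, n = 2) in Q808. The difference from Con. was -113 for PTZ and -191 for Q808, each with an exact permutation p of 0.1, the smallest that these numbers allow. Between Q808 and PTZ it was -77.9, with an exact permutation p of 0.5.

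*Ppp3ca* made up 60.3%, 56.8% and 64.2% of the catalytic sum in Con., 57.0%, 52.4% and 57.4% in PTZ, and 61.7% and 55.4% in Q808. The groups overlapped, and the difference of -4.81 percentage points in PTZ vs. Con. had an exact permutation p of 0.3. The ratio of *Ppp3r1* to the catalytic sum was 0.443, 0.445 and 0.397 in Con., 0.447, 0.457 and 0.458 in PTZ, and 0.385 and 0.449 in Q808. The 3 PTZ ratios stood above the 3 Con. ratios by a mean of 0.0256 (exact permutation p of 0.1), but by 0.0099 without Con.-3, and the Q808 ratios overlapped with both groups.

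Neuronal markers also differed between the libraries that carry these values. Summed FPKM of the 5 markers of neurons of all kinds was 1194 to 1814 in Con., 1404 to 1915 in PTZ and 946 and 1652 in Q808, and the lowest value belonged to Q808-1, which was also lowest for *Camk2b* and the 3 calcineurin genes. Between PTZ and Con. 0 of these 5 markers were called and their median log2 fold change was 0.12. It was 0.05 within the 5-library set and 0.22 within the 3-library set. Their values ranged from -0.31 (*Rbfox3*, the 1 negative value) to 0.16. The 3 calcineurin genes had log2 fold changes of -0.16 to -0.45, a range that includes the value of *Rbfox3*. Between Q808 and Con. 0 of the 5 were called and their median was -0.43. Of 4 markers of CA1 pyramidal cells 1 was called lower (*Pou3f1*, -0.69, list median -0.64). That list held 3 negative values and 1 positive one (*Spink8*, 0.79). *Fibcd1* and *Spink8* of this list did not exceed 0.340 and 0.585 FPKM in any library. The list median rests on *Fibcd1* (-0.59) beside *Pou3f1*. Its median was -0.15 within the 5-library set and -0.77 within the 3-library set. In the same comparison 3 of 5 mural cell markers, 2 of 5 endothelial markers and 1 of 5 microglial markers were called higher. The part of cell content in the calcineurin differences was not tested.

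**Figure D2:**
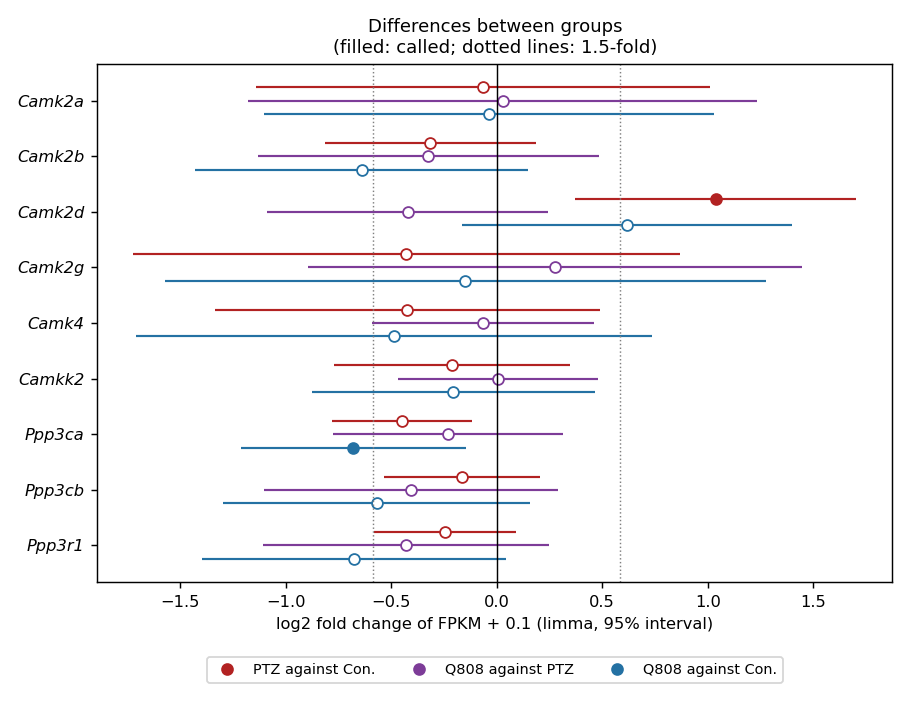
Log2 fold change of FPKM + 0.1 for each gene on the horizontal axis, with limma's 95% interval, in PTZ vs. Con., Q808 vs. PTZ and Q808 vs. Con. Filled points passed both criteria, which holds for *Camk2d* in PTZ vs. Con. (1.04) and *Ppp3ca* in Q808 vs. Con. (-0.68), and dotted lines mark 1.5-fold.

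Seen over all 9 genes, 1 had a positive and 8 a negative log2 fold change in PTZ vs. Con., with a median of -0.25 against -0.04 over all tested genes. Their median was -0.04 within the 5-library set, with 4 positive and 5 negative and all genes at -0.11, and -0.44 within the 3-library set, with all genes at 0.11, so that the lower median relative to all genes came from the unreplicated set. In Q808 vs. PTZ 3 were positive and 6 negative, with a median of -0.23 against 0.10, and 0 of 9 groups were free of overlap, against 15.6% of all genes. The count in Q808 vs. Con. was 1 positive and 8 negative, with a median of -0.49 against 0.04, and medians of -0.23 against 0.05 within the 5-library set and -0.78 against 0.02 within the 3-library set. *Camk2d* was the gene with a positive value in both comparisons with Con. Since both use the same Con. libraries, the likeness of these counts is no independent observation.

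Several of the 9 genes also differed between the 3 libraries high in striatum markers and the other 5. *Camk2a* had 302 ± 62.4 FPKM (SD, n = 3) in the libraries high in striatum markers and 609 ± 80.8 (SD, n = 5) in the others, and the sets did not overlap. *Camk2b* had 230 ± 65.0 against 351 ± 39.3 FPKM and *Ppp3cb* 157 ± 41.3 against 219 ± 16.9 FPKM, again without overlap. *Camk4* differed in the other direction, at 28.8 ± 15.2 against 16.3 ± 1.18 FPKM, also without overlap. The sets overlapped for *Camk2d*, *Camk2g*, *Camkk2*, *Ppp3ca* and *Ppp3r1*. No test was made, since the sets were defined from the data.

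**Figure D3:**
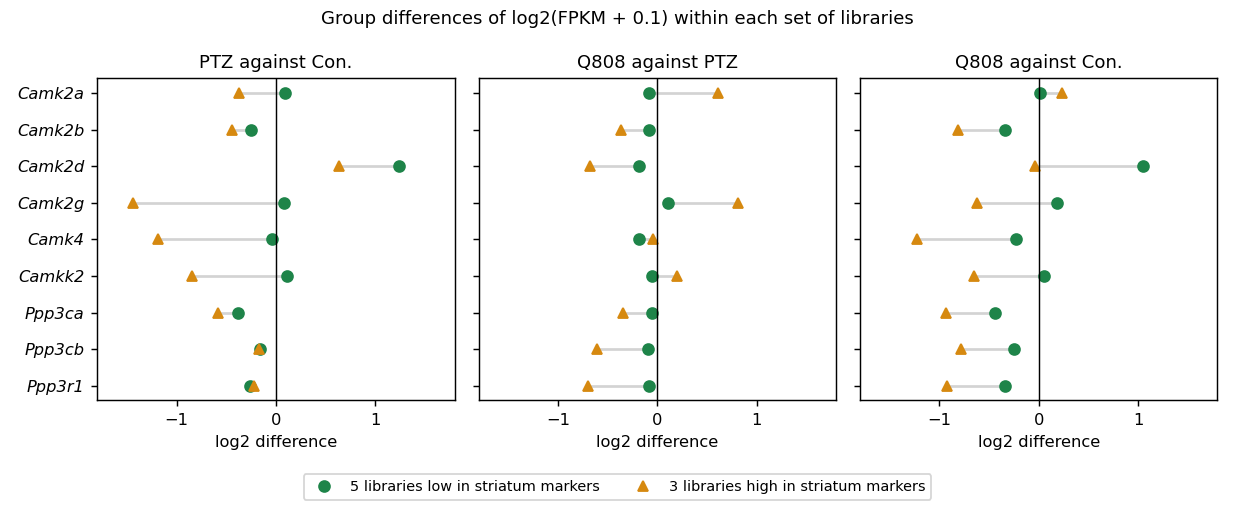
Difference of mean log2(FPKM + 0.1) between groups on the horizontal axis, within the 5 libraries low in striatum markers (circles) and within the 3 high ones (triangles), for each gene and comparison. *Camk2d* lies to the right of 0 in both sets for PTZ vs. Con. (1.24 and 0.64), the 3 calcineurin genes lie to the left in both sets in all comparisons, and *Camk4* and *Camk2g* differ between PTZ and Con. mainly within the 3-library set.

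Across the 8 libraries, *Ppp3cb* and *Ppp3r1* varied together most closely on the log2 scale (Pearson r = 0.981), followed by *Camk2b* with *Ppp3cb* (r = 0.969) and with *Ppp3r1* (r = 0.952). *Ppp3ca* had r = 0.880 with *Ppp3r1* and 0.793 with *Ppp3cb*. *Camk2d* had r = -0.581 with *Ppp3ca*. Over the 5 libraries low in striatum markers alone, *Camk2b* and *Ppp3r1* had r = 0.996, *Ppp3cb* and *Ppp3r1* r = 0.923, and *Camk2d* and *Ppp3ca* r = -0.979. The values over 8 points share the striatum division and the groups, those over 5 points share the groups, and they are given without a test.

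Among the genes whose log2 levels were most like those of *Camk2d* over the 8 libraries were *Olfm2* (r = 0.969), *Kcnip3* (r = 0.959), *Myh3* (r = 0.942) and *Slc7a5* (r = 0.938). *Olfm2*, which encodes the secreted protein olfactomedin 2, had FPKM of 11.1, 14.2 and 15.1 in Con., 21.5, 27.6 and 26.0 in PTZ, and 18.1 and 20.2 in Q808. *Kcnip3*, which encodes a calcium-binding protein of A-type potassium channels also known as DREAM, had 17.2, 23.4 and 25.5 in Con., 31.7, 37.2 and 32.5 in PTZ, and 28.7 and 33.8 in Q808. For both, PTZ lay above Con. in every library, and Q808 lay above Con. as well. Those most like *Camk2g*, the gene with the widest log2 range of the 9, were *Kpna6* (r = 0.975), *Ipo8* (r = 0.961), *Ubox5* (r = 0.954), *Cds2* (r = 0.948) and *Pgr* (r = 0.944), and *Kpna6* and *Ipo8* encode nuclear import receptors. They are the closest of 15593 genes over 8 points, and no test was made.

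Of 40 other genes of calmodulin, CaM kinase and calcineurin signalling, 39 were tested, and *Ppp3r2*, the B subunit gene of the testis, stayed below the filter. In PTZ vs. Con. 1 of the 39 was called higher and 1 lower, against 1.69% and 0.84% of all tested genes. Their median log2 fold change was 0.01, against -0.04 over all tested genes. In Q808 vs. PTZ none of the 39 was called by limma, against 1.92% of all tested genes (0 adjusted p-values under 0.05 in the whole table and 341 unadjusted). Between Q808 and Con., 2 of the 39 were called higher and 0 lower, against 3.07% and 0.391% of all tested genes. The list of 9 other calmodulin-dependent kinases held the one called lower, *Dapk1*, which encodes death-associated protein kinase 1.

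*Dapk1* had FPKM of 15.1, 19.1 and 16.0 in Con., 10.7, 9.37 and 11.6 in PTZ, and 6.97 and 14.2 in Q808. Every PTZ library lay below every Con. library, and so did both Q808 libraries. Its mean fell from 16.7 ± 2.10 (SD, n = 3) to 10.5 ± 1.12 (SD, n = 3) in PTZ, a log2 fold change of -0.66 (SE 0.16, limma unadjusted p = 0.0040, limma adjusted p = 0.999), with -0.76 within the 5-library set and -0.46 within the 3-library set. Without Con.-2 or PTZ-2 it was under the fold limit, at -0.56 and -0.58. The log2 fold change of *Dapk1* in Q808 vs. Con. was -0.74 and was not called, but was -1.24 and called without Q808-2.

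*Crem*, a transcription factor gene of the CREB family whose product CaM kinases can phosphorylate, had FPKM of 2.56, 2.37 and 2.85 in Con., 5.06, 10.7 and 3.21 in PTZ, and 4.81 and 3.85 in Q808. All 5 kindled rats stood above the 3 Con. rats, and PTZ-2 was highest, as it was for *Camk2d*. *Crem* rose in PTZ vs. Con. by a log2 fold change of 1.08 (SE 0.42, limma adjusted p = 0.999) and in Q808 vs. Con. by 0.71 (limma adjusted p = 0.901). The difference between PTZ and Con. was 1.54 within the 5-library set and 0.16 within the 3-library set, and *Crem* was called in 11 of 18 alternatives in PTZ vs. Con. and in 10 of 17 in Q808 vs. Con. Leaving out any of Con.-1, Con.-2, Con.-3, PTZ-1 or PTZ-2 ended the call in PTZ vs. Con., with log2 fold changes of 0.62 (without PTZ-2) to 1.16, and leaving out Con.-1, Con.-2 or Q808-1 ended that in Q808 vs. Con., with 0.56 to 0.71.

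*Nfatc4*, one of the NFAT factors that calcineurin dephosphorylates, had FPKM of 0.377, 0.392 and 0.358 in Con., 0.512, 0.239 and 1.17 in PTZ, and 0.818 and 1.41 in Q808. The Q808 libraries stood above all Con. libraries, while PTZ overlapped with both. Its mean rose from 0.375 ± 0.0172 (SD, n = 3) in Con. to 1.11 ± 0.419 (SD, n = 2) in Q808, a log2 fold change of 1.31 (SE 0.35, limma unadjusted p = 0.0116, limma adjusted p = 0.901). Without Q808-2 the log2 fold change was 0.95 and *Nfatc4* was not called. At FPKM near or below 1 the depth behind these values is unknown.

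In the other lists, no gene was called in PTZ vs. Con., and the gene with the greatest absolute log2 fold change is given for each. It was *Gap43* (0.34) among calmodulin and the proteins that bind its free form, *Camk2n2* (0.45) of the 2 CaMKII inhibitor genes, *Ppp3cc* (0.03) as the one tested of the other calcineurin subunits, *Akap5* (-0.41) among calcineurin regulators and anchors and *Ppp1r1b* (-0.44) among calcineurin targets. The value of *Akap5* rested on Con.-3, at 65.0 FPKM against 12.8 to 24.4 in the other 7 libraries, and was 0.24 without it. *Ppp1r1b*, which encodes DARPP-32 of striatal projection neurons, had 755, 405 and 386 FPKM in the 3 libraries high in striatum markers and 37.4 to 47.7 in the others. *Camk2n1*, whose product inhibits CaMKII, followed the same division, with 1355, 1567 and 1890 FPKM against 681 to 758.

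**Figure D4:**
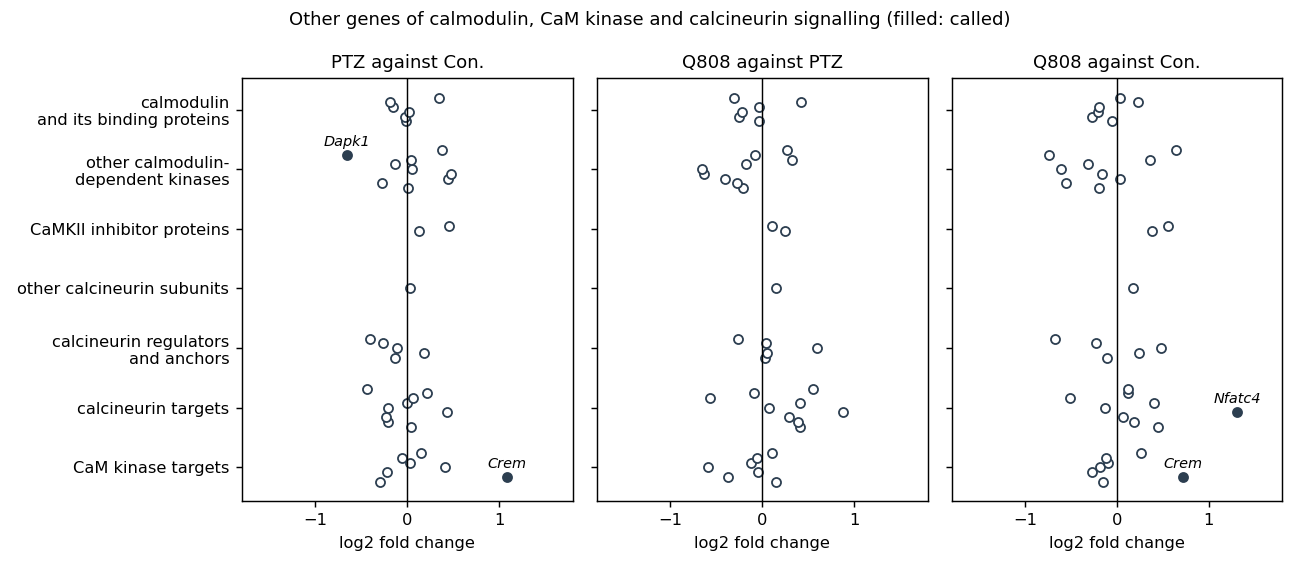
Log2 fold change on the horizontal axis of the 39 tested genes of calmodulin, CaM kinase and calcineurin signalling outside the 9, by list, in the 3 comparisons. Filled points were called, namely *Dapk1* (-0.66) and *Crem* (1.08) in PTZ vs. Con. and *Nfatc4* (1.31) and *Crem* (0.71) in Q808 vs. Con., and no point is filled in Q808 vs. PTZ.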

How the data were processed

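RNA sequencing was done on the hippocampus of 3 Con., 3 PTZ and 2 Q808 rats, each rat giving 1 library, and groups follow the labels. Trimmomatic was used for trimming, and the deposited FPKM per gene were computed by the authors with Cufflinks. The submitters' processing notes also name HISAT2, Bowtie2, StringTie, SAMtools, HTSeq and DESeq. The genome build is not given in the sources used here. The paper reports the amount of clean data per sample, but the authors' read counts were not used here. The number of reads behind each value is therefore unknown. Symbols were matched by GeneID to the RefSeq table of GRCr8 for 20633 of 22601 genes.

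Fits used limma 3.58.1 (empirical Bayes with a trend) in R 4.3.3, each comparison on its own 2 groups, with Benjamini-Hochberg adjustment over all 15593 genes. For shares, two-sided exact permutation tests were used. Tables and plots were made with numpy 2.4.6, matplotlib 3.10.9 and pandas 2.3.3 under Python 3.11.15. The limma script was tested on simulated data. Deviations of same-numbered PTZ and Con. libraries from their group means correlated across genes (r = 0.212, 0.299 and 0.422). The numbers come from the labels of different rats. In both groups the third library alone is high in striatum markers, which shifts the group mean for the others too. These values therefore cannot tell a pairing by number from the striatum division.

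Named genes were the 9, the called genes of the 7 pathway lists and the one per list with the greatest change in PTZ vs. Con., the 5 genes most like the gene with the smallest p-value and the 5 most like that with the widest range. Some genes that this rule names are not reported here. Genes and lists were chosen with earlier results of these data known. Alternatives were pseudocounts of 1 and 0.01, a 2-fold limit, a minimum mean FPKM of 1, all genes above 0, the replicate block, median ratio scaling, quantile normalization, no trend, all 3 groups in one fit, and leaving out each library. The fit without the 3 libraries high in striatum markers and that with striatum markers as a covariate were added after the data were seen.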

Additional observations from a re-analysis of the deposited data

How the results depend on the processing

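Of 468 values of the 9 genes under alternatives, 32 turned in direction, 6 lost and 12 gained a call, and the others kept both. *Camk2d* in PTZ vs. Con. kept its call in all, where it was the 1 gene of the 9 called in each. Causes of the changes were not tested.

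Pathway genes called in PTZ vs. Con., 2 as reported, numbered 1 with quantile normalization, 1 with a 2-fold limit and 0 to 3 with 1 library left out. In Q808 vs. PTZ, 0 as reported, they numbered 1 with all genes above 0 (*Ppp3r2*), 1 with the replicate block (*Crtc2*), 1 without the libraries high in striatum markers (*Nfatc4*) and 0 to 3 with 1 library left out. In Q808 vs. Con., 2 as reported, they numbered 1 with a pseudocount of 1, a mean FPKM of at least 1, a 2-fold limit or without the libraries high in striatum markers, 4 with the replicate block or with striatum markers as a covariate, and 1 to 6 with 1 library left out. Of the 9 genes, 0 to 2 were called in Q808 vs. PTZ with 1 library left out, the 2 being *Ppp3cb* (-0.83) and *Ppp3r1* (-0.85) without Q808-2. In Q808 vs. Con., 2 were called with all 3 groups in a fit or quantile normalization (*Ppp3ca* and *Ppp3r1*), 0 with a 2-fold limit, 3 with the covariate (*Camk2b*, *Ppp3ca* and *Ppp3r1*) and 0 to 4 with 1 library left out, with 4 without Q808-2 and 0 without Con.-1, Con.-2 or Q808-1. A group left with 1 library was assumed to vary like the other.

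Uncalled log2 fold changes that turned in direction did so in these settings. Without the libraries high in striatum markers, values in PTZ vs. Con. were 0.092 for *Camk2a*, 0.078 for *Camk2g* and 0.11 for *Camkk2*, those in Q808 vs. PTZ -0.084 for *Camk2a* and -0.056 for *Camkk2*, and those in Q808 vs. Con. 0.0080 for *Camk2a*, 0.19 for *Camk2g* and 0.049 for *Camkk2*. In Q808 vs. PTZ, median ratio scaling gave -0.043 for *Camk2a* and -0.064 for *Camkk2*, quantile normalization -0.0040 for *Camkk2*, and the replicate block -0.44 for *Camk2a*, -0.089 for *Camk2g*, 0.035 for *Camk4* and -0.12 for *Camkk2*. With 1 library left out, PTZ vs. Con. ranged from -0.37 to 0.40 for *Camk2a* and from -0.66 to 0.058 for *Camk4*. Q808 vs. PTZ ranged from -0.44 to 0.38 for *Camk2a*, -0.76 to 0.11 for *Camk2b*, -0.089 to 0.54 for *Camk2g*, -0.28 to 0.16 for *Camk4*, -0.12 to 0.088 for *Camkk2*, -0.46 to 0.00031 for *Ppp3ca*, -0.83 to 0.014 for *Ppp3cb*, -0.840 to 0.0098 percentage points for the *Camk2d* share and -0.227 to 6.13 for the *Ppp3ca* share. Q808 vs. Con. ranged from -0.39 to 0.32 for *Camk2a*, -0.66 to 0.22 for *Camk2g* and -5.03 to 1.32 percentage points for the *Ppp3ca* share.

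Q808 shares 2 numbers with each other group, whose deviations correlated at -0.295 and 0.322 with PTZ and -0.379 and 0.527 with Con. The 2 Q808 deviations from their mean mirror each other, and only Q808-1 is high in striatum markers. These values therefore cannot show whether the numbers mark a pairing. With the replicate block in Q808 vs. Con., *Camk2d* was called (0.84) and *Ppp3ca* was not (-0.67, limma adjusted p = 0.569). In PTZ vs. Con. the block changed no call of the 9 genes, while calls over all genes went from 395 to 616. Over all alternatives these counts ranged from 191 (2-fold limit) to 1530 (without the libraries high in striatum markers) in PTZ vs. Con., from 132 (without PTZ-1) to 1894 (replicate block), with 300 as reported, in Q808 vs. PTZ, and from 257 (2-fold limit) to 1799 (without Q808-2), with 540 as reported, in Q808 vs. Con. The files used hold no counts, so the reads behind a value are unknown. With 2 or 3 rats per group, differences under the printed intervals cannot be resolved.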
